A study of Homo sapiens with 8 samples.

Results

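Interferon-stimulated genes are the genes whose transcription rises when a cell senses interferon, and 43 of them were described here in MEG-01, an established cell line from a human megakaryoblastic leukaemia. The genes came from a list of symbols that was matched to the 60754 rows of the expression table. Of the 43, 42 were found by the symbol in their row. OAS1 was found by its Ensembl identifier, because the symbol cell of that row reads AC004551.1, a gene annotated on the other strand of the same locus. All 43 passed the filter on low counts and were among the 17314 genes tested. MX2, OAS2, IFI44L and XAF1 lay under the level of that filter (0.172 CPM) in both untreated libraries and passed only through the libraries with PMA.

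Type I interferons bind the receptor chains IFNAR1 and IFNAR2, whose kinases JAK1 and TYK2 activate STAT proteins, among them STAT2. STAT2 joins IRF9 in a complex that binds the interferon-stimulated response element (ISRE) of target promoters, while interferon gamma acts on the gamma-activated site (GAS). The targets encode RNA sensors, RNA-degrading or RNA-binding proteins, membrane proteins that hinder viral entry or release, and regulators of the pathway itself. Megakaryocytes and platelets carry interferon receptors and are known to express such genes during infection.

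The study compared 4 groups of 2 libraries. MEG-01 cells received 100 nM PMA (phorbol 12-myristate 13-acetate, an activator of protein kinase C that drives megakaryocytic differentiation) plus 20 µM Ceefourin 2 (a compound that inhibits ABCC4, a transporter of cyclic nucleotides), PMA alone, Ceefourin 2 alone at a dose that the labels do not state, or no treatment. Treatments lasted 48 h, and every group is the same cell line in culture, so no other blood or stromal cell is part of the model. The labels do not say whether the libraries of a group came from separate cultures, so p-values measure the spread between these libraries, which may be technical.

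Libraries held between 44430292 and 89950886 expected counts. The mitochondrial share of counts was 8.32% and 4.94% in replicates 1 and 2 of PMA plus Ceefourin 2 and 9.61% and 4.53% in PMA, against 2.77% and 3.11% in Ceefourin 2 and 2.55% and 3.94% in untreated libraries. Of 8 megakaryocyte markers, 7 were tested and all 7 rose after PMA, where 27.9% of all tested genes were called higher. Among them ITGB3 had 271 and 273 TPM in PMA libraries against 16.6 and 14.1 TPM in untreated ones. PF4, a platelet chemokine that defines mature megakaryocytes, was at 0 in 7 of the 8 libraries and at 0.03 TPM in the other. Markers of other blood cells were mixed. The 5 plasmacytoid dendritic cell markers summed to 18.3 to 21.4 TPM in PMA plus Ceefourin 2 and 17.96 to 19.02 TPM in PMA, against 19.8 to 24.1 TPM in Ceefourin 2 and 20.9 to 27.9 TPM in untreated libraries. After PMA, PTCRA rose, with 3.42 and 5.45 TPM in PMA against 0 TPM in both untreated libraries, and TCF4 fell, while the defining CLEC4C was at 0 TPM throughout. The 6 monocyte and macrophage markers summed to 22.7 to 23.4 TPM in PMA plus Ceefourin 2 and 28.4 to 29.5 TPM in PMA, against 26.1 to 28.5 TPM in Ceefourin 2 and 36.1 TPM in both untreated libraries. After PMA, FCGR1A (6.61 and 6.26 TPM in PMA against 0.71 and 0.77 TPM in untreated cells) and CSF1R rose and LYZ fell, while CD163 was at 0 TPM throughout. The 5 B cell markers stayed under 3 TPM in sum, with MS4A1 at 0 TPM. The 6 T and NK cell markers summed to 21.2 to 27.0 TPM in PMA plus Ceefourin 2 and 23.5 to 27.3 TPM in PMA, against 3.06 to 3.78 TPM in Ceefourin 2 and 2.17 to 2.21 TPM in untreated libraries, with CD3E at 0 TPM and NCAM1 as most of the sum with PMA. The 7 erythroid markers summed to 26115 to 33161 TPM in PMA plus Ceefourin 2 and 31648 to 38127 TPM in PMA, against 4566 to 4965 TPM in Ceefourin 2 and 9457 to 10413 TPM in untreated libraries, mostly from HBG2. After PMA 3 of the 7 rose (HBG1, HBG2 and ALAS2) and 4 fell (among them HBA1 and HBA2), and 6 of the 7 fell in Ceefourin 2 against untreated. The part of all these markers in the results was not tested, and in bulk RNA fewer cells of a kind and less RNA per cell cannot be told apart.

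Promoter sequence was read to see what the members share beyond their names. RefSeq promoter windows of GRCh38.p14 (250 bases before to 50 after the annotated start) matched 33 of the 43 genes. The ISRE letters (GAAA, any 2 bases, GAAA), searched on both strands, occurred in 21 of these 33 windows (63.6%), against 1255 of all 35116 windows (3.57%). A longer form (GGAAA, any 2 bases, GAAA) occurred in 14 of 33 (42.4%) and in 1.16% of all windows. The palindromic GAS letters TTCNNNGAA occurred in 9 of 33 (27.3%) and in 7.66% of all windows. A GAS match overlapped an ISRE match in IFITM1, BST2, IFI27 and EPSTI1. The ISRE letters were in 17 of the 28 windows of genes that rose after PMA, in all 3 windows of genes that fell and in 1 of 2 windows of genes that were not called. A match describes the letters in the window and does not show a binding site. The 40-base stretches around the match nearest to the start are shown for 8 genes that rose after PMA and for HERC5 and BST2, which fell, because genes of both directions carried the same letters. They lie on GRCh38.p14 at chr10:89392505-89392544 (plus strand) for IFIT1, chr10:89327860-89327899 (plus strand) for IFIT3, chr1:1013375-1013414 (plus strand) for ISG15, chr15:88638932-88638971 (plus strand) for ISG20 and chr7:93118091-93118130 (minus strand) for SAMD9. The others lie at chr1:27672261-27672300 (minus strand) for IFI6, chr14:94110626-94110665 (plus strand) for IFI27, chr17:78979957-78979996 (minus strand) for LGALS3BP, chr4:88457030-88457069 (plus strand) for HERC5 and chr19:17405730-17405769 (minus strand) for BST2. Other ISRE matches within the stretches of IFIT1, ISG15, IFI27 and BST2 are left in lower case where they lie outside the nearest match. Each stretch is written 5′ to 3′ along its gene, with the nearest match in capitals (TTTC at both ends if on the opposite strand):
IFIT1: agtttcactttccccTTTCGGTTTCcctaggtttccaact
IFIT3: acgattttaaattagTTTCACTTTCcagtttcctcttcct
ISG15: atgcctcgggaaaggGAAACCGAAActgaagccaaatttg
ISG20: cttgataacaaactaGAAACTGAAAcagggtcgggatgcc
SAMD9: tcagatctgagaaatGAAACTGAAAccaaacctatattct
IFI6: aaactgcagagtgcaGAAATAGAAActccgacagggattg
IFI27: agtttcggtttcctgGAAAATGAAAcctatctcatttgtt
LGALS3BP: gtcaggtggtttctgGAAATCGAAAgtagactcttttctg
HERC5: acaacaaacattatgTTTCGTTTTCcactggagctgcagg
BST2: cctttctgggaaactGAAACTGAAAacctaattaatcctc

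**Figure D1:**
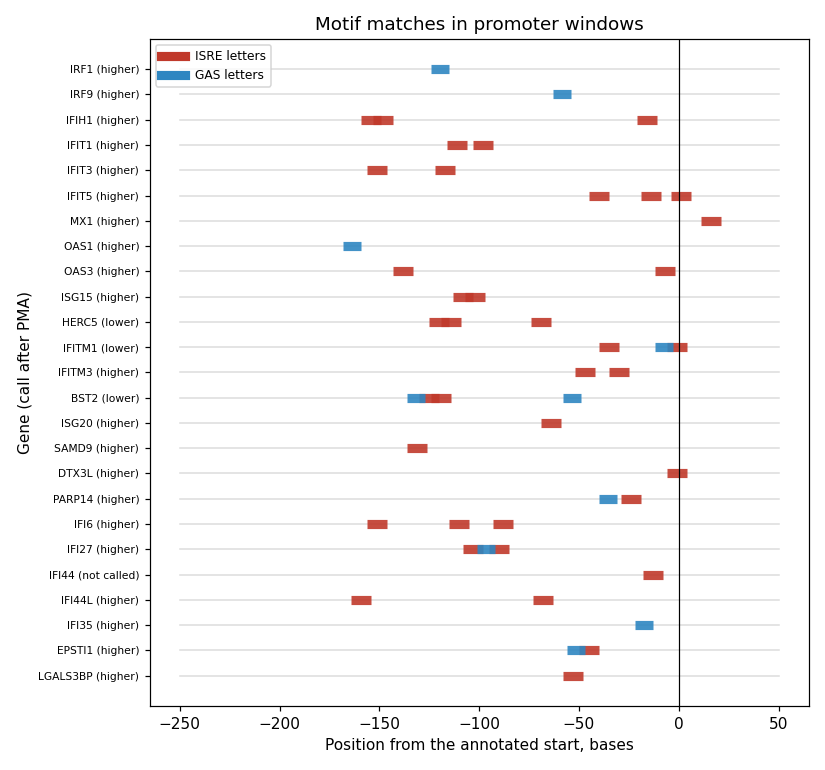
Positions of ISRE letters (red) and GAS letters (blue) in the promoter windows of the members with a match, in bases from the annotated start, with the call of each gene after PMA in brackets. All but 1 of the matches begin upstream of the start, and HERC5, IFITM1 and BST2, which fell, carry ISRE letters as do 17 of the 28 genes that rose and have a window.

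The members differed widely in level. The median member stood at 13.0 TPM in PMA plus Ceefourin 2 cells, with 4 members under 1 TPM, and at 11.7 TPM in PMA cells, with 2 under 1 TPM. It stood at 4.12 TPM in Ceefourin 2 cells, with 11 members under 1 TPM, and at 4.13 TPM in untreated cells, also with 11. In untreated cells IFITM2, BST2, IFITM1 and UBE2L6 were above 100 TPM. IFITM2, a membrane protein that hinders viral fusion, was the highest member in every group, at 209 ± 17.4 TPM in PMA plus Ceefourin 2, 234 ± 43.4 TPM in PMA, 285 ± 16.6 TPM in Ceefourin 2 and 256 ± 9.57 TPM in untreated cells (SD, n = 2 each). Summed over the 43 genes, levels were 1155 and 1395 TPM in PMA plus Ceefourin 2, 1078 and 1517 TPM in PMA, 974 and 1033 TPM in Ceefourin 2 and 914 and 901 TPM in untreated libraries. Of the 4 most abundant members in untreated cells, only UBE2L6 rose after PMA in edgeR.

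**Figure D2:**
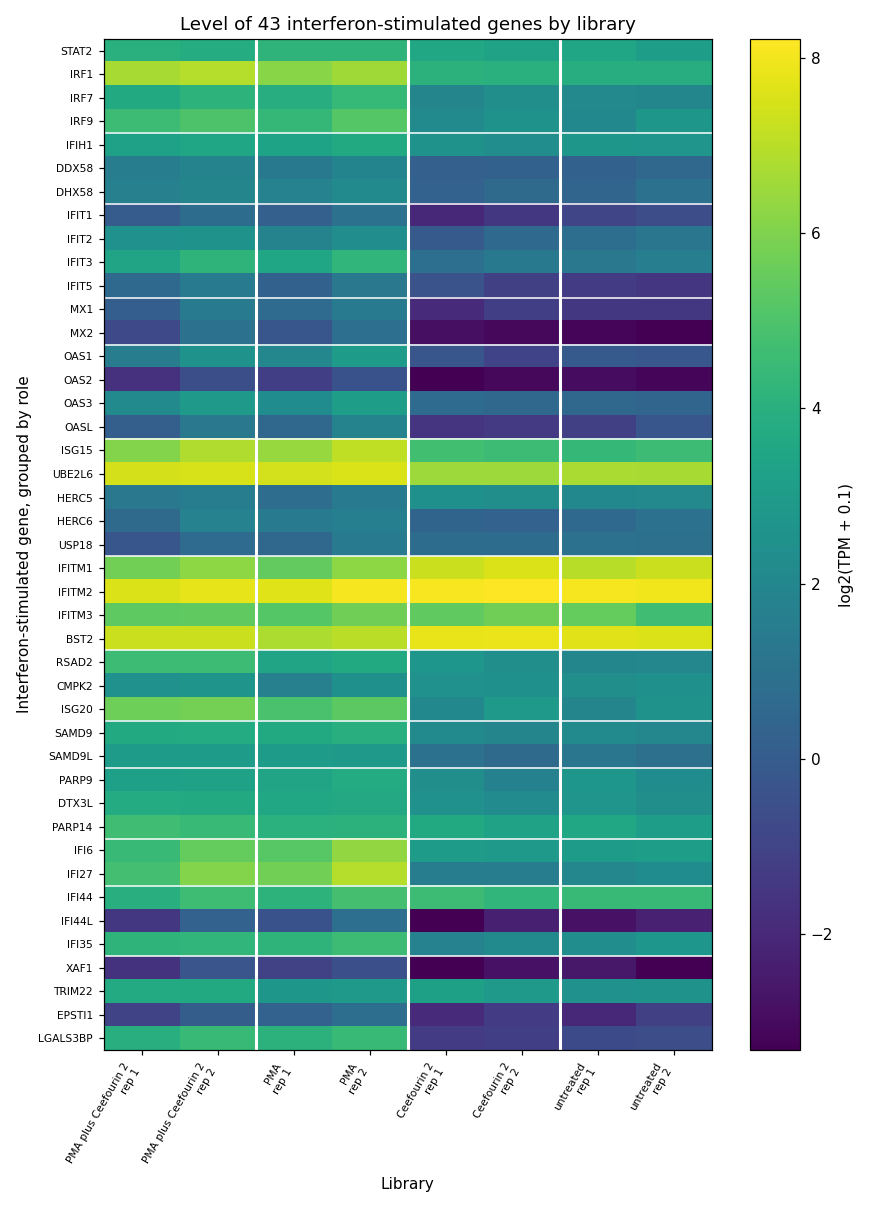
Level of each of the 43 genes (rows, grouped by role) in each of the 8 libraries (columns), as log2(TPM + 0.1). The 4 libraries with PMA are brighter than the 4 without it in most rows, and rows such as IFITM2 and IFI44 are about as bright in all columns.

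How these genes changed during induced differentiation was asked by setting PMA cells against untreated cells. In edgeR, 35 of 43 members rose, where 27.9% of all tested genes were called higher, and 3 fell, where 25.7% were called lower. Of the 35, 34 rose at least 2-fold, against 16.3% of all tested genes. The median log2 fold change of the members was 2.07, against -0.00 for all tested genes. Among the 39 members that were above the filter level in untreated cells, 31 rose and 3 fell, with a median of 1.85. Genes were called at a Benjamini-Hochberg adjusted p below 0.05 over all tested genes. On the deposited TPM values limma called 28 to 31 members higher and 3 lower over 3 settings. Of the genes that those settings called, 33.2% to 38.0% were higher, against 52.1% in edgeR. Their share of all tested genes called higher is not given here. The settings moved the median of all genes by up to 0.23 downward on the log2 scale. The median of the members, 2.07 in edgeR, was 0.96 with log2(TPM + 1) and 1.70 with log2(TPM + 0.1). It was 0.97 with log2(TPM + 1) on genes of at least 1 TPM in 2 libraries.

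The ligands of the pathway were nearly silent. Of 22 interferon genes looked up, 18 had 0 counts in all 8 libraries, including IFNG, and 1 was above 1 TPM in a library. IFNB1 had at most 0.13 TPM, in untreated replicate 2. Only IFNK, a type I interferon known from keratinocytes, was tested, and it had 0.70 and 0.60 TPM in PMA libraries against 0.06 and 0.02 TPM in untreated ones. That is a ratio of 20.8 (95% counting interval 6.78 to 104) over 3 reads in the untreated group, and IFNK rose in edgeR (adjusted p = 0.00031). It was also called higher in PMA plus Ceefourin 2 against Ceefourin 2, with 116 counts against 5, a ratio of 22.2 (9.24 to 69.7). Receptors and their kinases were present without treatment. IFNGR2, IL10RB, JAK1, JAK2 and TYK2 rose after PMA, with log2 fold changes of 0.34, 0.62, 1.11, 1.35 and 0.44. JAK1 had 127 and 119 TPM in PMA against 73.3 and 59.1 TPM in untreated cells, and the receptor chain IFNAR1, with 48.5 and 51.0 TPM in PMA against 54.7 and 51.5 TPM in untreated cells, was not called (edgeR adjusted p = 0.052). Of 9 inhibitors of the pathway, SOCS3, PTPN6 and PIAS4 rose and PTPN2 and PTPN11 fell, shares near those of all tested genes (27.9% higher and 25.7% lower). Of 19 other sensing and adaptor genes tested, 8 rose and 4 fell, against the same 27.9% and 25.7%. The cytosolic DNA sensor CGAS had 5.34 and 5.03 TPM in PMA libraries against 16.0 and 16.7 TPM in untreated ones and fell by 1.38 on the log2 scale (SE 0.17), and its partner TMEM173 (STING) fell by 0.71 (SE 0.17).

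All 4 transcription factors among the members rose after PMA. IRF1, which activates many interferon targets, had 71.7 and 93.9 TPM in PMA libraries against 14.6 and 14.7 TPM in untreated ones. The groups lay far apart, and the log2 fold change was 2.74 (SE 0.14, edgeR adjusted p = 5.2e-06). IRF7, which switches on interferon alpha genes, had 14.7 and 21.2 TPM in PMA against 4.18 and 3.87 TPM in untreated cells. IRF9, the DNA-binding part of the complex with STAT2, had 20.4 and 35.8 TPM in PMA against 4.07 and 6.80 TPM in untreated cells. STAT2 had 17.8 and 18.3 TPM in PMA against 10.8 and 8.84 TPM in untreated cells, the smallest rise of the 4 at 1.06 (SE 0.10). The RNA sensors IFIH1 (MDA5), DDX58 (RIG-I) and DHX58 (LGP2) rose as well, with log2 fold changes of 1.06, 1.53 and 1.85. IFIH1 was the most abundant of them, with 10.3 and 12.7 TPM in PMA libraries against 6.81 and 6.35 TPM in untreated ones.

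Effectors that bind or break viral RNA rose in every family. The IFIT genes encode RNA-binding repeat proteins and lie together on chromosome 10, and all 4 rose. IFIT3 had 11.1 and 19.2 TPM in PMA libraries against 2.33 and 2.99 TPM in untreated ones (log2 fold change 2.73, SE 0.37), and IFIT5 had 1.11 and 2.33 TPM in PMA against 0.32 and 0.25 TPM in untreated cells. IFIT1, which binds RNA with foreign ends, had 1.07 and 1.94 TPM in PMA against 0.44 and 0.56 TPM in untreated cells, and it was not called in limma on log2(TPM + 1) or log2(TPM + 0.1) (adjusted p = 0.060 and 0.061). IFIT2 had 3.5 and 4.92 TPM in PMA against 1.72 and 2.24 TPM in untreated cells and the smallest rise of the family (1.36, SE 0.28). The OAS genes encode synthetases that activate RNase L, apart from OASL, which lacks that activity, and all 4 rose. OAS1 had 3.94 and 7.86 TPM in PMA libraries against 0.86 and 0.78 TPM in untreated ones, and OAS3 had 4.75 and 8.66 TPM in PMA against 1.35 and 1.24 TPM in untreated cells, so both sets of libraries lay apart. OAS2, at 0.34 and 0.65 TPM in PMA against 0.03 and 0.01 TPM in untreated cells, had 106 counts with PMA and 3 without, a ratio of 36.7 (95% counting interval 12.2 to 181). OASL had 1.34 and 3.5 TPM in PMA against 0.36 and 0.76 TPM in untreated cells, and its rise lost its call without untreated replicate 1 (adjusted p = 0.10) or PMA replicate 2 (0.13). ISG20, an RNA exonuclease, had 29.5 and 39.8 TPM in PMA against 3.68 and 5.90 TPM in untreated cells and rose by 3.13 on the log2 scale (SE 0.37, edgeR adjusted p = 0.00027).

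The dynamin-like GTPases MX1 and MX2, which block the entry of viral genomes, were close to silent before treatment. MX1 had 1.55 and 2.7 TPM in PMA libraries against 0.26 and 0.26 TPM in untreated ones (log2 fold change 4.14, SE 0.57). MX2 had 0.75 and 1.76 TPM in PMA against 0.01 and 0 TPM in untreated cells, with 331 counts after PMA and 1 without, a ratio of 344 (95% counting interval 61.3 to 13624). XAF1, a partner of the apoptosis inhibitor XIAP, had 0.39 and 0.60 TPM in PMA against 0.07 and 0 TPM in untreated cells and a ratio of 134 (23.6 to 5334), also over 1 count. IFI44L had 0.64 and 1.76 TPM in PMA against 0.05 and 0.11 TPM in untreated cells, over 4 counts without PMA. These 3 genes stayed under 2 TPM in every library. The largest rise among members with more than a few reads in untreated cells was in LGALS3BP, a secreted galectin-binding glycoprotein. It had 16.7 and 21.5 TPM in PMA libraries against 0.51 and 0.57 TPM in untreated ones, with a log2 difference of 5.52 (SE 0.27, edgeR adjusted p = 3.7e-06). IFI27, a mitochondrial protein, had 53.5 and 122 TPM in PMA against 3.97 and 4.86 TPM in untreated cells, and its relative IFI6 had 37.2 and 80.3 TPM in PMA against 8.32 and 8.40 TPM in untreated cells. Both rose, by 4.45 (SE 0.57) and 3.05 (SE 0.44) on the log2 scale, and in both the higher PMA library was more than 2-fold above the other.

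Members of smaller families rose as well. SAMD9 and SAMD9L, neighbours on chromosome 7 that restrict viruses and cell growth, had 12.6 and 15.5 TPM in PMA against 4.56 and 3.92 TPM in untreated cells and 8.13 and 7.31 TPM in PMA against 2.20 and 1.82 TPM in untreated cells. The ubiquitin ligase DTX3L and its ADP-ribosyltransferase partner PARP9 overlap on opposite strands of chromosome 3, and rose by 1.34 and 1.14 on the log2 scale. PARP14, 105.4 kb from DTX3L, had 16.2 and 17.2 TPM in PMA libraries against 11.5 and 8.34 TPM in untreated ones (1.01, SE 0.13). IFI35, a leucine-zipper protein, had 18.1 and 23.9 TPM in PMA against 5.00 and 6.49 TPM in untreated cells, and EPSTI1 had 1.15 and 1.71 TPM in PMA against 0.14 and 0.35 TPM in untreated cells.

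Within the ISG15 pathway the enzymes went different ways. ISG15, a ubiquitin-like protein that is attached to other proteins, had 85.8 and 139 TPM in PMA libraries against 20.1 and 24.1 TPM in untreated ones and rose by 2.58 (SE 0.32). UBE2L6, its conjugating enzyme, had 169 and 191 TPM in PMA against 107 and 103 TPM in untreated cells (1.02, SE 0.09). HERC5, the main human ligase for ISG15, had 1.66 and 2.51 TPM in PMA against 4.06 and 4.20 TPM in untreated cells and fell by 0.74 (SE 0.20, edgeR adjusted p = 0.015). HERC6, a related ligase 14.0 kb away on the same strand, had 2.51 and 3.05 TPM in PMA against 1.44 and 1.96 TPM in untreated cells and rose by 1.22 (SE 0.25). USP18, the protease that removes ISG15, had 1.38 and 2.59 TPM in PMA against 1.86 and 1.82 TPM in untreated cells, with overlapping libraries and no call (0.35, SE 0.38, adjusted p = 0.47). The fall of HERC5 lost its call without untreated replicate 2 (adjusted p = 0.064) or PMA replicate 1 (0.084). The rise of HERC6 was not called in limma on TPM over 3 settings (adjusted p = 0.13 to 0.29), and the difference between the HERC genes was not tested.

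The membrane restriction factors, among the most abundant members, mostly did not share in the rise. BST2 (tetherin), which holds budding virus at the cell surface, had 109.5 and 130.3 TPM in PMA libraries against 208 and 196 TPM in untreated ones and fell by 0.51 (SE 0.10, edgeR adjusted p = 0.0027). IFITM1 had 43.9 and 75.4 TPM in PMA against 124 and 154 TPM in untreated cells and fell by 0.99 (SE 0.29, adjusted p = 0.020). That call was lost without untreated replicate 2 (0.10) or PMA replicate 1 (0.11). IFITM2 had 204 and 265 TPM in PMA against 263 and 249 TPM in untreated cells and was not called. IFITM3 was called higher (0.73, SE 0.27, adjusted p = 0.048), but its TPM values overlapped, with 36.1 and 52.6 in PMA and 44.8 and 25.7 in untreated libraries. It was not called in limma on log2(TPM + 1) (adjusted p = 0.46), without untreated replicate 2 (0.22), without PMA replicate 2 (0.30), or without either library of PMA plus Ceefourin 2 (0.068 each). The IFITM genes are close copies, and the annotated spans of IFITM1 and IFITM2 overlap on the same strand, so reads may be split between them.

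Other neighbours differed too. RSAD2 (viperin), an antiviral enzyme that makes a chain-terminating nucleotide, lies at chr2:6865806-6898239 on GRCh38 and overlaps CMPK2, a mitochondrial nucleotide kinase on the opposite strand at chr2:6840570-6866635. RSAD2 had 10.6 and 12.8 TPM in PMA libraries against 3.78 and 3.90 TPM in untreated ones and rose by 2.14 (SE 0.14, edgeR adjusted p = 1.5e-05). CMPK2 had 3.19 and 5.46 TPM in PMA against 5.14 and 5.35 TPM in untreated cells, a log2 fold change of 0.02 (SE 0.18) with overlapping libraries. IFI44, which lies 3.7 kb from IFI44L, had 17.3 and 28.3 TPM in PMA against 22.1 and 22.5 TPM in untreated cells and was not called (0.21, SE 0.31). TRIM22, an antiviral ubiquitin ligase at chr11:5689689-5737089, had 6.85 and 7.28 TPM in PMA against 5.67 and 5.77 TPM in untreated cells and missed the threshold (0.30, SE 0.12, adjusted p = 0.072). Of the 43 members, 19 overlap an annotated gene on the other strand and 7 one on the same strand. The kit marks strand, but no source used here says whether the counting used it.

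**Figure D3:**
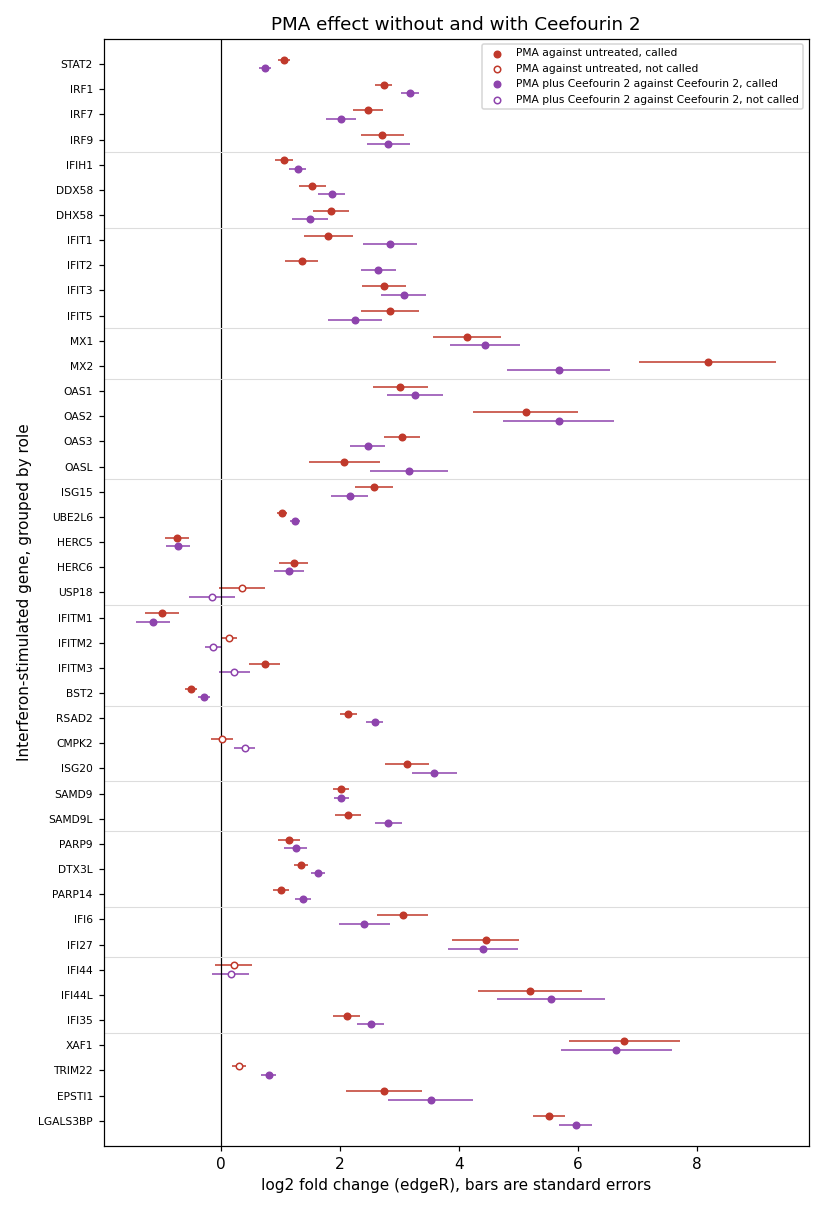
Log2 fold change of each member (edgeR, bars are standard errors) for PMA against untreated (red) and for PMA plus Ceefourin 2 against Ceefourin 2 (purple), with filled points for calls and open points for genes not called; the fitted values of MX2, OAS2, IFI44L and XAF1 rest on few reads without PMA. In both comparisons 35 members are called to the right of 0 and HERC5, IFITM1 and BST2 to the left.

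The libraries of a PMA group differed from each other in these genes. In PMA cells, replicate 2 exceeded replicate 1 in 42 of 43 members on the CPM scale, against 52.6% of all tested genes. In PMA plus Ceefourin 2 cells it did so in 39 of 43, against 55.3% of all. In Ceefourin 2 cells it did so in 24 of 43, against 51.9%, and in untreated cells in 27 of 43, against 50.4%. The median log2 ratio of replicate 2 to replicate 1 over the members was 0.48 in PMA plus Ceefourin 2 and 0.54 in PMA, against 0.09 in Ceefourin 2 and 0.08 in untreated cells. For 19 members the ratio was at least 0.5 in both PMA groups, against 2.23% of all tested genes.

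Members with a large ratio in both groups included MX2, with a log2 ratio of 1.59 in PMA plus Ceefourin 2 and 1.31 in PMA, OASL (1.3 and 1.31) and IFI27 (1.34 and 1.19). For 17 members the ratio was under 0.5 in size in both groups, and these included IRF1, STAT2, RSAD2, TRIM22, SAMD9, SAMD9L, DTX3L, PARP14, UBE2L6 and BST2. Replicate 1 of each PMA group also had the higher mitochondrial share, and the part of that share in the gap was not tested. With replicate 1 left out of both PMA groups, 37 members rose and 1 fell in PMA against untreated, where 19.5% of all tested genes were called higher and 16.2% lower. USP18 and IFI44 were then called higher (edgeR adjusted p = 0.043 and 0.034). HERC5 and IFITM1 missed the threshold (adjusted p = 0.076 and 0.10).

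**Figure D4:**
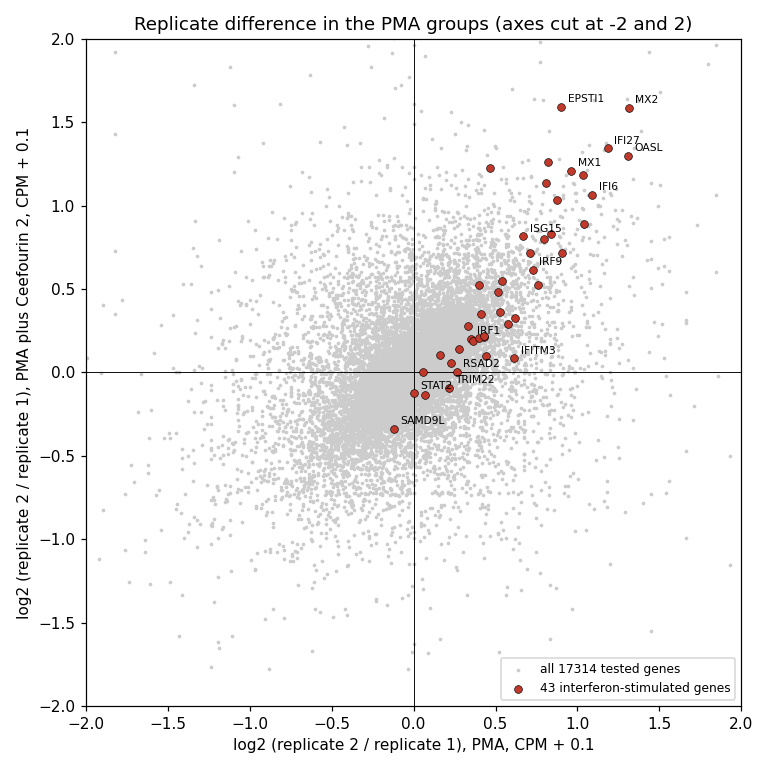
Log2 ratio of replicate 2 to replicate 1 in PMA (x axis) and in PMA plus Ceefourin 2 (y axis), from CPM + 0.1, for the 43 members (red) and all 17314 tested genes (grey), with axes ending at -2 and 2. Of the members, 39 lie above 0 on both axes, with MX2, OASL, EPSTI1 and IFI27 farthest out and SAMD9L below 0 on both.

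PMA plus Ceefourin 2 was set against PMA to ask what the inhibitor changed in differentiating cells. RSAD2 and TRIM22 rose and no member was called lower. Among all tested genes 1.83% were called, 0.918% higher and 0.913% lower. RSAD2 was the member that rose at least 2-fold, against 0.502% of all tested genes. RSAD2 had 23.6 and 24.0 TPM in PMA plus Ceefourin 2 libraries against 10.6 and 12.8 TPM in PMA libraries. Both values with the inhibitor were above both without it, and the log2 fold change was 1.15 (SE 0.13, edgeR adjusted p = 0.0091). TRIM22 had 13.2 and 12.9 TPM in PMA plus Ceefourin 2 against 6.85 and 7.28 TPM in PMA, again without overlap, with a log2 fold change of 0.86 (SE 0.12, adjusted p = 0.018). Its neighbour TRIM5, on the opposite strand and looked up after the values of TRIM22 were seen, had a log2 fold change of -0.10 (SE 0.10) and was not called. CMPK2, which overlaps RSAD2, had 5.56 and 6.15 TPM in PMA plus Ceefourin 2 against 3.19 and 5.46 TPM in PMA and was not called (0.50, SE 0.18, adjusted p = 0.26).

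The RSAD2 call was lost without PMA replicate 1 (adjusted p = 0.053) and without either library of PMA plus Ceefourin 2 (0.077 and 0.062), and the TRIM22 call without any one of the 4 compared libraries (0.080 to 0.14). With replicate 1 of both PMA groups left out, the adjusted p was 0.32 for RSAD2 and 0.46 for TRIM22, and limma on log2(TPM + 1) gave 0.070 and 0.072. With genes limited to those of at least 1 TPM in 2 libraries, limma called 2 members.

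Most members kept close to their PMA level. The median log2 fold change of the 43 was -0.12, against 0.00 for all tested genes, and 15 of the 43 values were positive. In edgeR, 6 members had an unadjusted p below 0.05, all with positive log2 fold changes: RSAD2, TRIM22, IRF1, BST2, CMPK2 and PARP14. The share of all tested genes below that level was not computed, so this count is not set against all genes. DESeq2 called 4 members higher and 0 lower. Of all genes called, limma on TPM had 37.3% to 42.97% higher, against 50.2% in edgeR. IRF1 had 104 and 122 TPM in PMA plus Ceefourin 2 libraries against 71.7 and 93.9 TPM in PMA libraries (0.45, SE 0.13, adjusted p = 0.17), and BST2 had 155 and 155 TPM in PMA plus Ceefourin 2 against 109.5 and 130.3 TPM in PMA (adjusted p = 0.10). On the normalised CPM scale 9 members lay higher without overlap, against 23.5% of all tested genes, and 1 lower, against 21.9%. IFI27 and IFI6 had the most negative values, -0.87 (SE 0.47) and -0.77 (SE 0.39). IFI27 had 26.8 and 66.9 TPM in PMA plus Ceefourin 2 libraries against 53.5 and 122 TPM in PMA libraries, and the groups overlapped. Among the pathway's inhibitors, SOCS3, which blocks JAK kinases, had 16.6 and 15.1 TPM in PMA plus Ceefourin 2 against 8.30 and 8.64 TPM in PMA and rose (0.93, SE 0.14, adjusted p = 0.020). The phosphatase gene PTPN6 had 42.4 and 37.8 TPM in PMA plus Ceefourin 2 against 73.2 and 77.5 TPM in PMA and fell by 0.90 (SE 0.12, adjusted p = 0.015).

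**Figure D5:**
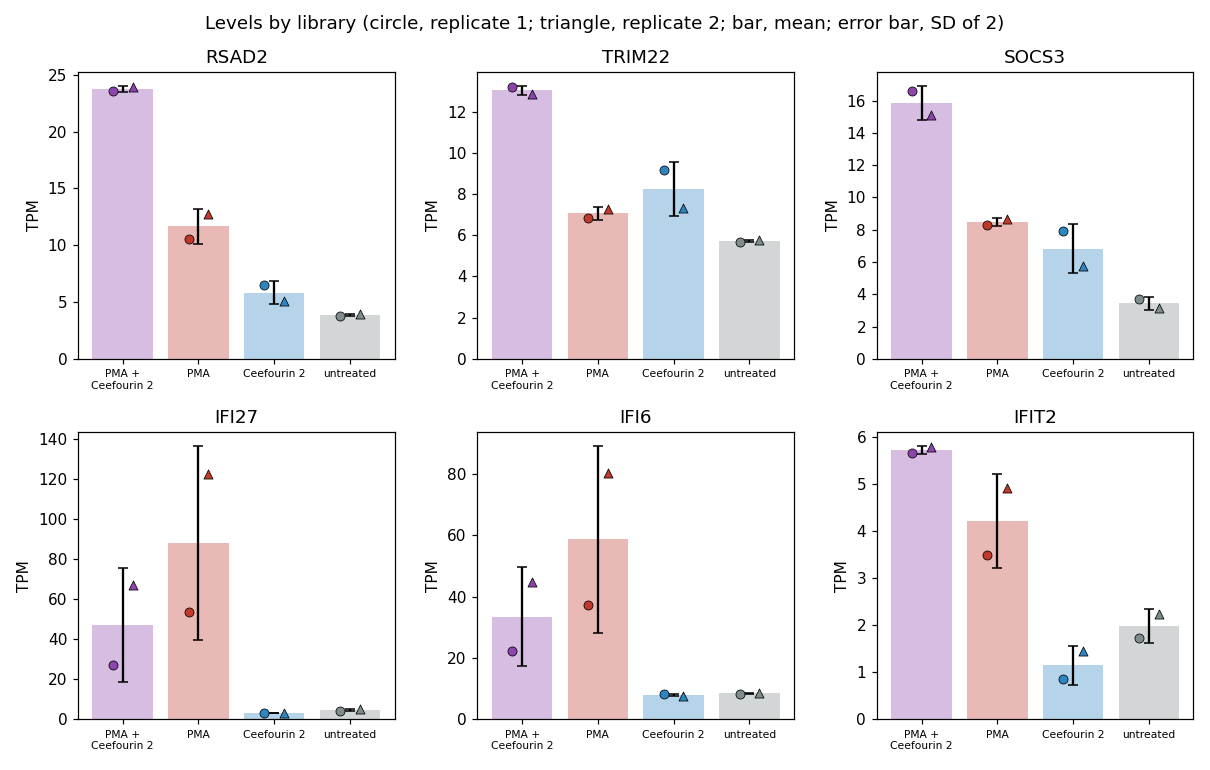
TPM of RSAD2, TRIM22, SOCS3, IFI27, IFI6 and IFIT2 in each library (circles, replicate 1, and triangles, replicate 2), with group means as bars and the SD of 2 libraries as error bars. RSAD2, TRIM22 and SOCS3 are highest in both libraries of PMA plus Ceefourin 2, while IFI27 and IFI6 overlap between the PMA groups.

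Ceefourin 2 was set against untreated cells to ask what the inhibitor did without PMA. No member was called in edgeR, where 1.68% of all tested genes were called, 0.959% higher and 0.722% lower, and 0.422% at least 2-fold higher. An unadjusted p below 0.05 was found for 6 members, a count whose counterpart over all tested genes was not computed. They were RSAD2 and TRIM22 with positive and IFIH1, IFIT1, IFIT2 and UBE2L6 with negative log2 fold changes. On TPM limma called 0 members. DESeq2 called 1, RSAD2 (adjusted p = 0.00074). RSAD2 had 6.52 and 5.09 TPM in Ceefourin 2 libraries against 3.78 and 3.90 TPM in untreated ones, without overlap, and a log2 difference of 0.71 (SE 0.14, edgeR adjusted p = 0.056). TRIM22 had 9.17 and 7.33 TPM in Ceefourin 2 against 5.67 and 5.77 TPM in untreated cells (0.36, SE 0.12, adjusted p = 0.24). IFIT1 had 0.15 and 0.27 TPM in Ceefourin 2 against 0.44 and 0.56 TPM in untreated cells (-1.27, SE 0.46, adjusted p = 0.27). On the CPM scale 10 members lay higher without overlap and 16 lower, against 19.8% and 20.9% of all tested genes. SOCS3 rose here as well, with 7.89 and 5.74 TPM in Ceefourin 2 libraries against 3.73 and 3.13 TPM in untreated ones (0.97, SE 0.14, adjusted p = 0.021), and PTPN1, a phosphatase of the inhibitor list, fell by 0.42 (SE 0.08, adjusted p = 0.046).

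Whether the inhibitor effect differed with PMA was tested by the interaction, which called 0 members in edgeR and 0 in DESeq2, where edgeR called 0.0116% of all tested genes. Unadjusted p fell below 0.05 for IRF1, IFIT2 and TRIM22, and the share of all tested genes below that level was not computed. The interaction was 0.44 for RSAD2 (SE 0.19, edgeR adjusted p = 0.71) and 0.50 for TRIM22 (SE 0.17, adjusted p = 0.56), and neither passed the threshold.

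The comparison of PMA plus Ceefourin 2 with Ceefourin 2 gave the PMA effect in the presence of the inhibitor, in libraries other than those of the first comparison. Again 35 members rose, where 28.0% of all tested genes were called higher, and HERC5, IFITM1 and BST2 fell, where 25.6% were called lower. The median log2 fold change was 2.25, against 0.02 for all tested genes. The 35 and this median include MX2, OAS2, IFI44L and XAF1, which passed the filter only through libraries with PMA. Among the 39 members that were above the filter level in untreated cells, 31 rose and 3 fell. On TPM limma called 25 to 31 members higher and 3 to 4 lower. Of the genes that limma called, 30.9% to 35.8% were higher, against 52.2% in edgeR. The median of the members was 1.00 in limma with log2(TPM + 1) and 1.76 with log2(TPM + 0.1). It was 1.01 with log2(TPM + 1) on genes of at least 1 TPM in 2 libraries. LGALS3BP had 15.03 and 21.6 TPM in PMA plus Ceefourin 2 libraries against 0.32 and 0.34 TPM in Ceefourin 2 libraries (5.97, SE 0.27, edgeR adjusted p = 3.4e-06). IRF1 had 104 and 122 TPM in PMA plus Ceefourin 2 against 17.1 and 15.9 TPM in Ceefourin 2, ISG15 had 67.6 and 115 TPM in PMA plus Ceefourin 2 against 26.1 and 24.0 TPM in Ceefourin 2, and MX1 had 0.98 and 2.56 TPM in PMA plus Ceefourin 2 against 0.17 and 0.34 TPM in Ceefourin 2. Of the members with few reads, MX2 had a ratio of 59.3 (95% counting interval 28.5 to 148), OAS2 of 63.2 (17.1 to 527) and XAF1 of 138 (24.3 to 5479.7). TRIM22, with 13.2 and 12.9 TPM in PMA plus Ceefourin 2 against 9.17 and 7.33 TPM in Ceefourin 2, was called here (0.80, SE 0.12, adjusted p = 0.00091).

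RSAD2 rose to 23.6 and 24.0 TPM in PMA plus Ceefourin 2 libraries, against 6.52 and 5.09 TPM in Ceefourin 2 libraries (2.59, SE 0.14). BST2 had 155 and 155 TPM in PMA plus Ceefourin 2 libraries against 230.2 and 231 TPM in Ceefourin 2 libraries and fell by 0.29 (SE 0.09, adjusted p = 0.033). IFITM1 had 53.6 and 75.3 TPM in PMA plus Ceefourin 2 against 157 and 195 TPM in Ceefourin 2, and HERC5 had 2.38 and 2.85 TPM in PMA plus Ceefourin 2 against 5.49 and 5.03 TPM in Ceefourin 2. The members not called were USP18, IFITM2, IFITM3, CMPK2 and IFI44. The falls of BST2, HERC5 and IFITM1 all lost their calls without PMA plus Ceefourin 2 replicate 1 (adjusted p = 0.15, 0.093 and 0.071), and that of BST2 also without PMA plus Ceefourin 2 replicate 2 (0.091) or Ceefourin 2 replicate 2 (0.14).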

How the data were processed

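RNA from 8 MEG-01 samples was sequenced as stranded, poly(A)-selected, paired-end libraries, per the labels' protocols. Reads were processed by the authors with STAR 2.7 and RSEM 1.3.1 on hg38, per the submitters' processing notes, and the deposited values are RSEM expected counts and TPM per gene. RSEM shares reads among similar genes, and 7.05% to 7.83% of the expected counts per library were not whole (tolerance 1e-06), so they were rounded. TPM divides by transcript length and is used here for levels.

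Genes were filtered with filterByExpr (minimum count 10), scaled by TMM and tested in edgeR 4.0.16 (R 4.3.3) by the quasi-likelihood test in 1 model of the 8 libraries with 1 coefficient for each group (4 residual degrees of freedom). P-values were adjusted by Benjamini-Hochberg over 17314 genes, and genes under 0.05 were called. The common coefficient of biological variation was 13.6%. Alternatives were DESeq2 1.42.0, limma 3.58.1 on TPM, other filters, a replicate term and leaving out libraries. Counting intervals cover counting error only.

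Gene positions came from GENCODE v29 by identifier, and promoters from RefSeq. The members and the pathway and marker lists were chosen with earlier results of these data known. Any member could be named, with values per library for those called in a comparison with Ceefourin 2, for the 12 largest changes after PMA, and for the lowest-p uncalled and the most abundant member of each role group. Genes of the pathway lists could be named with their values. Some genes of these lists are not reported here. Figures were drawn with matplotlib 3.10.9.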

Additional observations from a re-analysis of the deposited data

How the results depend on the processing

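With 2 libraries per group, the calls of the Ceefourin 2 comparisons depended on the processing, and the cause was not tested. For PMA plus Ceefourin 2 against PMA, 2 members were called in edgeR, 4 in DESeq2, 8 with no filter on low counts, 0 in limma on log2(TPM + 1) or log2(TPM + 0.1) but 2 in limma on genes of at least 1 TPM, 6 with a replicate block and 0 with replicate 1 left out of both PMA groups. Over all genes the counts in the same order were 317, 773, 1211, 118, 79 and 249, 1482 and 1. Of the 8 members called with no filter, 6 were higher and 2 lower, where 685 of all genes were higher and 526 lower. The 2 were IFI27 and IFI6 (edgeR adjusted p = 4.7e-05 and 0.00011). Without 1 library, 0 to 2 members and 21 to 324 genes were called.

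For Ceefourin 2 against untreated, 0 members were called, 1 in DESeq2, 6 with no filter and 6 with the replicate block. With no filter 2 were higher and 4 lower, where 696 of all genes were higher and 478 lower. In the block 1 was higher and 5 lower, where 808 of all genes were higher and 624 lower. RSAD2 was called higher, and IFIT1, IFIT2 and OASL lower, in both of these settings. Over all genes, 291 were called, 802 in DESeq2, 1174 with no filter, 89 and 109 in limma with pseudocounts of 1 and 0.1, 1432 with the replicate block, 31 with only the libraries of the compared groups and 41 without replicate 1 of both PMA groups. Without 1 library, 0 members and 30 to 188 genes were called.

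The interaction called 0 members, 1 with no filter, 1 with the replicate block, and 0 without any 1 library. Over all genes it called 2, 198 in DESeq2, 5 with DESeq2 size factors in edgeR, 0 with a filter of 1 CPM, 414 with no filter, 8 and 9 in limma with pseudocounts of 1 and 0.1, 21 with a filter of 1 TPM, 247 with the replicate block, 0 without replicate 1 of both PMA groups and 0 to 2 without 1 library.

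The PMA effects varied less, though over other settings up to 11156 of all genes were called for PMA against untreated. For PMA plus Ceefourin 2 against Ceefourin 2 up to 11010 genes were called. For PMA against untreated, 38 members were called (31 to 39 over other settings, 35 to 38 without 1 library), and 9281 genes (7205 to 9440 without 1 library). For PMA plus Ceefourin 2 against Ceefourin 2, 38 members were called (28 to 39 and 35 to 38) and 9269 genes (7205 to 9160 without 1 library). Among the values of single members over all settings, 61 lost and 33 gained a call and no called value changed sign. Among values without a call, 184 had the opposite sign in another setting. Replicate numbers were not used to pair libraries, since each group has only 2 and the labels do not say what they share. Correlations of the deviations of same-numbered libraries were 0.137 to 0.363. In the block, TRIM22 was called after PMA (edgeR adjusted p = 0.041), and PMA plus Ceefourin 2 against PMA added IRF1 (0.023), BST2 (0.011) and PARP14 (0.015) as higher and IFI27 (0.029) as lower.

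The share of promoters with ISRE letters was 63.6%, and 42.4% with the longer letters. Low members such as MX2, XAF1 and OAS2 rest on 1 to 3 counts in untreated cells, so the size of their rise is uncertain. The counting intervals leave out the spread between libraries and so understate that uncertainty.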

Other observations

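IFIT2 lay higher with Ceefourin 2 in PMA cells and lower with it in cells without PMA. It had 5.67 and 5.79 TPM in PMA plus Ceefourin 2 libraries, against 3.5 and 4.92 TPM in PMA libraries, and 0.85 and 1.44 TPM in Ceefourin 2 libraries, against 1.72 and 2.24 TPM in untreated ones. Neither pair of groups overlapped. The difference of the effects was 1.29 on the log2 scale (SE 0.39) and was not called in edgeR (adjusted p = 0.47), in which 0.0116% of all tested genes were called. With no filter on low counts the adjusted p was 0.00044, with the replicate block 0.039 and in DESeq2 0.080.

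Other regulators of the family also changed after PMA. IRF2 rose by 0.60 on the log2 scale and IRF3 by 0.81. The ubiquitin ligase TRIM25, which acts on RIG-I, rose by 1.14, and the DNA sensor AIM2 by 3.79. IFI16, another DNA sensor, fell by 0.56, and TRAF3, an adaptor of RNA sensing, fell by 0.53. None of these was called in edgeR for PMA plus Ceefourin 2 against PMA or for Ceefourin 2 against untreated.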
